A study of Mus musculus with 6 samples.

Results

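The 30 genes described here encode peroxisome biogenesis factors and enzymes or membrane proteins of peroxisomal metabolism. They were taken by name, and all 30 were found among the 24454 gene numbers of the table. The samples are MTflEcad cells, an epithelial line grown from a tumour of the mammary gland of the MMTV-Neu mouse strain, in which the mouse mammary tumour virus promoter drives the Neu (ERBB2) oncogene. The control, named PBS, was left without H2O2, while the line I80 had 80 µM H2O2 added daily over 7 months and the line DI150 had 150 µM. All 3 groups carry the same tumour background, each was sequenced in 2 libraries of total RNA depleted of ribosomal RNA, and each dose is 1 line, so dose and line cannot be told apart. The sources describe biological duplicates without saying whether they were separate long-term cultures, so a p-value here reflects only how far apart these libraries lie, which may be technical.

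Peroxisomes are organelles bounded by a single membrane that shorten very long and branched fatty acids, begin the synthesis of ether lipids and hold catalase. Their membrane proteins are inserted by PEX3, PEX16 and PEX19. Enzymes of the interior are made in the cytosol, bound by the receptors PEX5 or PEX7, docked at PEX13 and PEX14, and released inside, after which PEX5 is ubiquitinated by ligases that include PEX2 and PEX10 and pulled out by an ATPase complex that contains PEX6 and is held by PEX26. The acyl-CoA oxidases that start peroxisomal β-oxidation pass electrons directly to oxygen and so produce H2O2, which catalase breaks down.

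A library held 21017849 to 26608715 reads assigned to genes, 13905 to 15015 genes had a read, and 1 read was worth 0.0376 to 0.0476 CPM, the number of a gene's reads per 1000000 assigned reads. A count of 0 allows up to 3 reads, 0.113 to 0.143 CPM, a limit that covers counting error only. Of 8 epithelial markers, all 8 were detected in PBS and Krt19 was at 0 in the treated libraries. Against PBS 6 of them fell by limma in I80, and 7 fell in DI150, where Epcam rose, at 606 ± 32.1 CPM in PBS, 682 ± 48.3 CPM in I80 and 1055 ± 75.4 CPM in DI150 (SD, n = 2 each). The sum over the 8, most of it from Krt7, Krt8 and Krt18, was 9446 to 9772 CPM in PBS, 3616 to 3620 CPM in I80 and 3384 to 3724 CPM in DI150. Sums over 8 fibroblast markers were 21.8 to 24.0 CPM in every library, but their 3 tested members moved in opposite directions. Col1a2 averaged 15.3 CPM in PBS and had 0 reads in each treated library, whereas Col1a1, at 2.11 CPM in PBS, 8.90 CPM in I80 and 3.74 CPM in DI150, and Pdgfra, at 5.27, 14.8 and 18.7 CPM, rose in both treated lines. Over 6 endothelial markers the sums were at most 0.824 CPM, and over 8 adipocyte markers 11.8 to 13.7 CPM in DI150, nearly all from Lpl, and at most 0.162 CPM elsewhere. Over 8 leukocyte markers the sums were 9.77 to 17.2 CPM in PBS, where Csf1r made up most, 1.87 to 2.14 CPM in I80 and 1.81 to 1.98 CPM in DI150. In bulk RNA, fewer cells of a type and less RNA per cell cannot be told apart, and the part of these marker differences in the results was not tested.

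The 30 genes summed to 1254 and 1310.0 CPM in the PBS libraries, 1283 and 1283 CPM in I80, and 1442 and 1462 CPM in DI150. The 12 PEX genes among them summed to 397 and 422 CPM in PBS, 402 and 418 CPM in I80, and 500.1 and 484 CPM in DI150. The DI150 libraries were the highest in both sums, and the PBS and I80 libraries lay close together. A sum weighs abundant genes most. Abcd3 averaged 101 CPM in PBS and 176 CPM in DI150, and Pex5 53.3 and 108 CPM. The median log2 fold change of the tested members in DI150 against PBS was -0.003, with 7 called higher and 6 lower. Levels differed widely between genes. Per kilobase of exon, Gnpat had the highest mean level in PBS (49.0 CPM per kb), followed by Hsd17b4 (34.2), Pex19 (24.2), Agps (23.1), Pex2 (21.8) and Ech1 (20.3). At the other end were Pex11a (1.17 CPM per kb), Ehhadh (0.956) and Hao1 (0.0936). Ehhadh and Hao1 had a mean under 1 CPM over the 6 libraries and were left out of the test, so 28 of the 30 genes were tested.

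**Figure D1:**
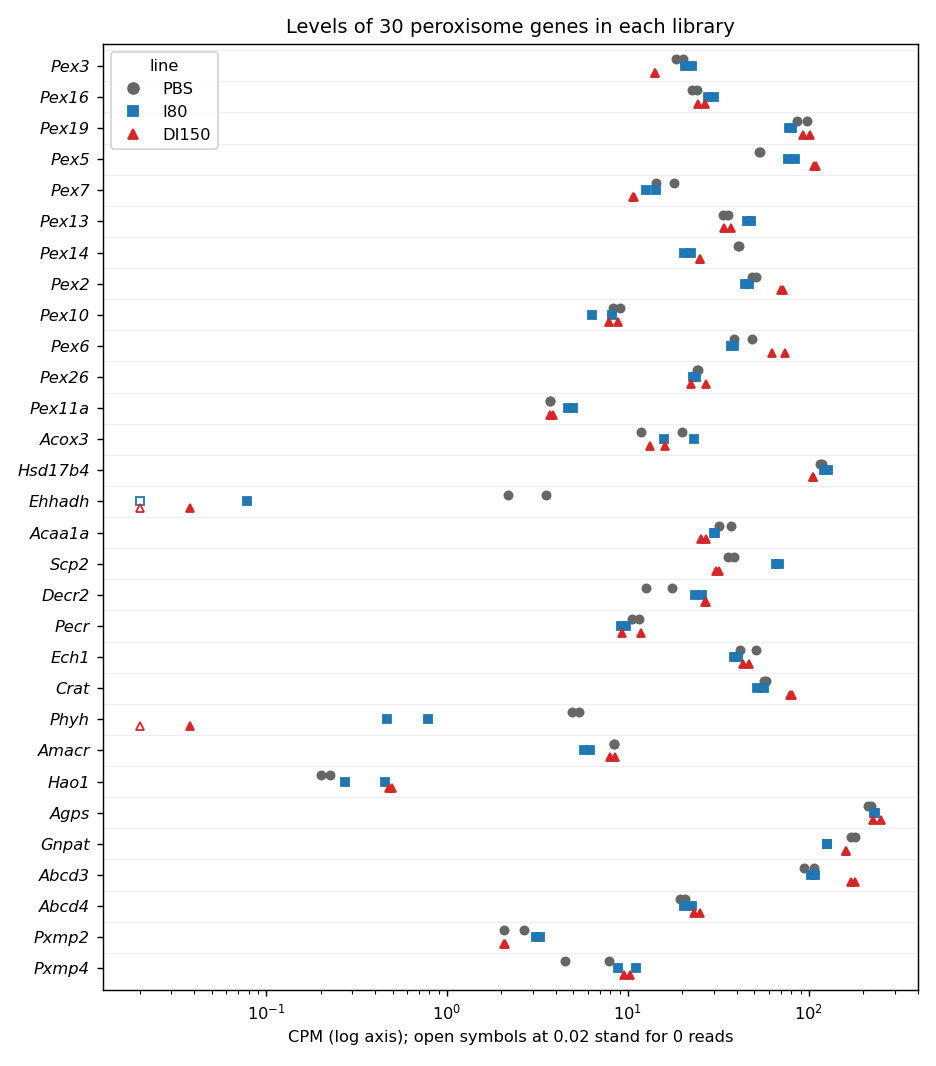
Level of each of the 30 genes in every library, in CPM on a log axis, with PBS as circles, I80 as squares and DI150 as triangles; open symbols stand for 0 reads. Most genes stay within a narrow band, while the symbols of Phyh and Ehhadh spread over more than a factor of 10.

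I80 against PBS asks how these transcripts stood after the lower dose. Phyh, the hydroxylase that begins α-oxidation of phytanic acid, fell 8.24-fold, and Pex14, of the import docking complex, fell 1.91-fold. Scp2, which carries a peroxisomal thiolase and a lipid carrier, rose 1.80-fold, Decr2, a dienoyl-CoA reductase, 1.64-fold, and Pex5, the main cargo receptor, 1.51-fold. Of the 28 tested genes, 6 rose (Pex16, Pex5, Pex13, Scp2, Decr2 and Pxmp4), 5 fell (Pex19, Pex14, Phyh, Amacr and Gnpat) and 17 did not pass limma's test at an adjusted p under 0.05. That is 39.3% of the tested members, beside 66.4% of all 11428 tested genes (32.3% higher and 34.2% lower). The median log2 fold change was 0.02 for the members and -0.00 for all tested genes, and the median size of a change was 0.25 and 0.45. The count of members that fell became 9 without PBS replicate 1 and 3 without I80 replicate 2. Phyh was the 1 tested member past a 2-fold fall, a class holding 12.3% of all tested genes. Phyh met the minimum mean of 1 CPM only through PBS, the group where it was high. Ehhadh, also far lower in I80 than in PBS, just missed that minimum and is not in the count. No tested member passed a 2-fold rise, which 9.87% did.

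DI150 against PBS asks the same of the higher dose. Phyh was almost absent from DI150, with 1 read in the 2 libraries together. Pex5 rose 2.03-fold, Decr2 1.79-fold, Abcd3, a peroxisomal fatty acyl-CoA transporter, 1.75-fold, Pex6 1.56-fold, Pex2 1.43-fold and Crat, a carnitine acetyltransferase, 1.40-fold. Pex14 fell 1.64-fold, Pex7 1.50-fold and Pex3 1.36-fold. Of the 28 tested genes, 7 rose (Pex5, Pex2, Pex6, Decr2, Crat, Abcd3 and Pxmp4), 6 fell (Pex3, Pex7, Pex14, Acaa1a, Scp2 and Phyh) and 15 did not pass. That is 46.4% of the tested members, beside 68.7% of all tested genes (32.7% higher and 36.1% lower). The median log2 fold change was -0.00 for the members and -0.03 for all tested genes, with median sizes of 0.20 and 0.48. Past 2-fold among the tested members were Pex5 upward, with 10.9% of all tested genes, and Phyh downward, with 12.1%. Here too Phyh met the minimum mean of 1 CPM only through PBS, and Ehhadh, far lower in DI150, was not tested. The same PBS libraries serve both comparisons, so the members that recur in them are not independent results.

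DI150 against I80 asks where the treated lines differed. Pex6 was 1.81-fold higher in DI150, Abcd3 1.66-fold, Pex2 1.56-fold, Crat 1.48-fold and Pex5 1.34-fold, while Scp2 was 2.15-fold lower and Pex3 1.52-fold lower. Of the 28 tested genes, 8 were higher in DI150 (Pex19, Pex5, Pex2, Pex6, Crat, Amacr, Gnpat and Abcd3), 6 were lower (Pex3, Pex13, Hsd17b4, Scp2, Phyh and Pxmp2) and 14 did not pass. That is 50% of the tested members, beside 43.8% of all tested genes (21.9% higher and 21.9% lower). The median log2 fold change was 0.09 for the members and 0 for all tested genes, with median sizes of 0.31 and 0.26. Scp2 and Phyh were past a 2-fold fall, beside 3.81% of all tested genes, and no tested member was past a 2-fold rise, beside 4.24%. Phyh met the minimum mean of 1 CPM only through PBS, which is not in this comparison. The count of members lower in DI150 became 3 without I80 replicate 1, 2 without I80 replicate 2 and 3 without DI150 replicate 1. Calls over all tested genes shrank too, to 1295 to 1561 higher and 1187 to 1662 lower when 1 of the 4 libraries compared was left out, beside 2503 and 2505 with all of them.

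**Figure D2:**
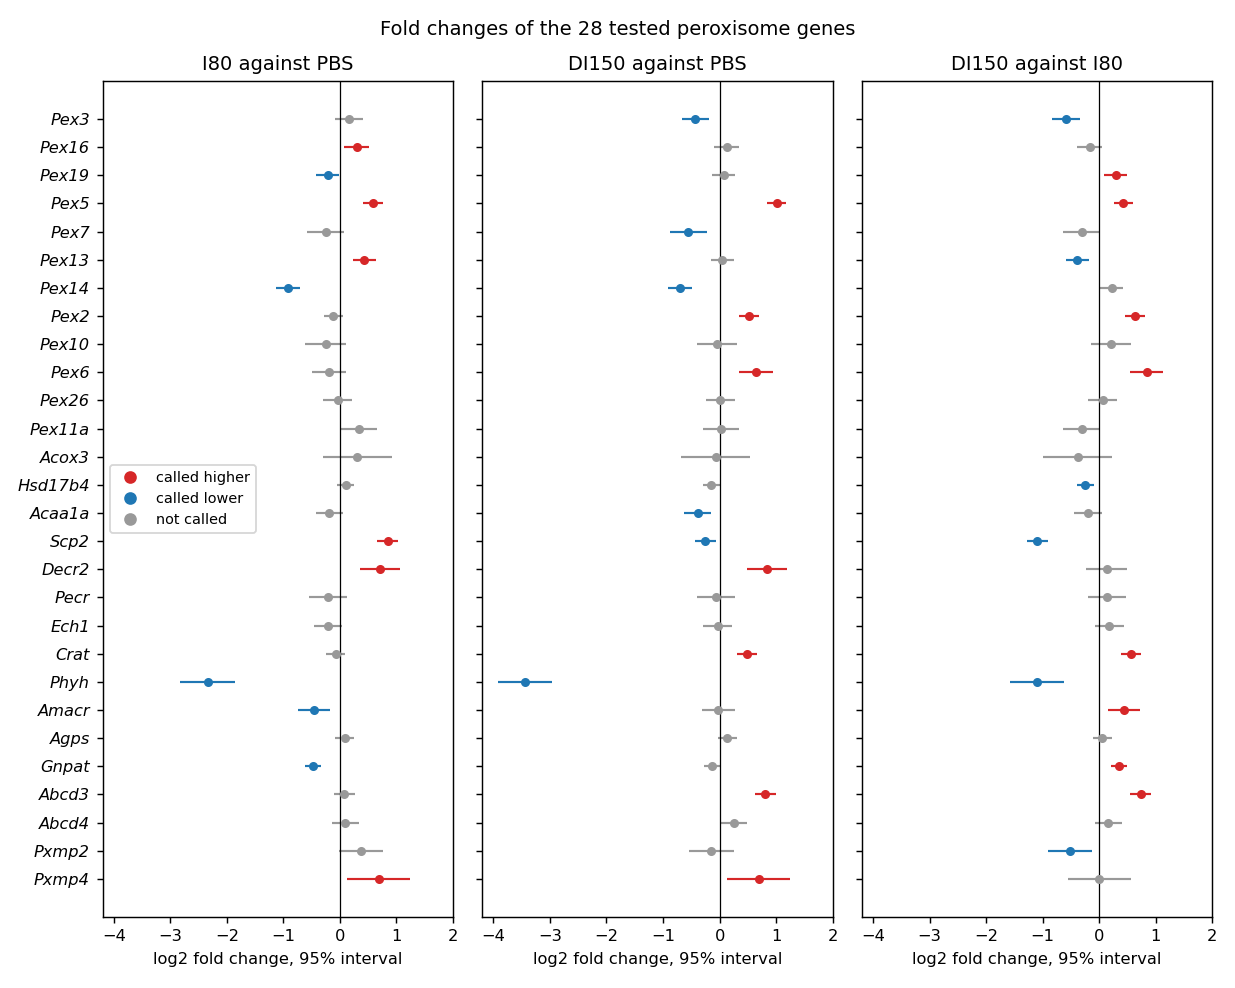
Log2 fold change of the 28 tested genes with its 95% interval in each comparison (log2(CPM + 0.5) scale); red is called higher, blue called lower and grey not called. Phyh lies far to the left of the others against PBS, and Scp2 lies to the right in I80 against PBS and to the left in DI150 against I80.

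Membrane assembly came first among the biogenesis steps. Pex3, the membrane receptor that docks PEX19 (gene 56535, chromosome 10 of GRCm38, 13523842 to 13553142), had 20.1 and 18.4 CPM in PBS, 22.5 and 20.7 CPM in I80, and 14.2 and 14.2 CPM in DI150. Both DI150 libraries lay below all others, and I80 did not overlap PBS. Pex3 fell in DI150 against PBS (log2 fold change -0.43 ± 0.10 SE, limma adjusted p = 0.00715). It was also lower in DI150 than in I80 (-0.59 ± 0.10 SE, limma adjusted p = 0.00352). It did not pass in I80 against PBS (0.16, 95% interval -0.08 to 0.40, limma adjusted p = 0.208). Its exons share 249 bases with those of Adat2 on the opposite strand. The libraries were made with a stranded kit, but whether counting used strand is not given in the sources used here, so reads of such overlaps cannot be told apart.

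Pex19, the cytosolic chaperone of newly made membrane proteins, had 86.5 and 98.0 CPM in PBS, 77.6 and 80.4 CPM in I80, and 101 and 92.8 CPM in DI150. I80 lay below the other lines, and DI150 overlapped PBS. Its fall in I80 was at the edge of the test (-0.22 ± 0.08 SE, limma adjusted p = 0.0499) and the call was lost without any 1 library other than PBS replicate 1 (limma adjusted p from 0.0647 to 0.215). It was also lost under TMM scaling (limma adjusted p = 0.0683), with DESeq2 (adjusted p = 0.0598) and under other pseudocounts and minimum levels (limma adjusted p from 0.0501 to 0.0665). It was higher in DI150 than in I80 by 0.29 ± 0.08 (SE, limma adjusted p = 0.0269), a call lost without either I80 library or either DI150 library (limma adjusted p from 0.0534 to 0.157). Pex16, which recruits PEX3 to the membrane, averaged 28.8 ± 1.34 CPM in I80 and 23.4 ± 0.879 CPM in PBS (SD, n = 2 each; limma adjusted p = 0.0256). That rise of 1.23-fold was lost without PBS replicate 1, I80 replicate 1 or I80 replicate 2 (limma adjusted p = 0.0719, 0.0730 and 0.166). Pex16 averaged 25.5 ± 1.45 CPM in DI150, which did not pass against PBS (log2 fold change 0.12, 95% interval -0.10 to 0.35). Of its exonic bases, 127 are shared with Large2 on the opposite strand, which stood at 53.0 and 52.4 CPM in PBS, 151 and 149 CPM in I80, and 182 and 195 CPM in DI150.

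The cargo receptors went in opposite directions. Pex5, whose protein binds the C-terminal targeting signal of most matrix enzymes (gene 19305, chromosome 6, 124396816 to 124415944), had 53.6 and 53.1 CPM in PBS, 76.8 and 83.9 CPM in I80, and 106 and 109.8 CPM in DI150. The lines did not overlap, and the level stood higher at each dose. The log2 fold change was 0.59 ± 0.07 in I80 against PBS (SE, limma adjusted p = 0.000238) and 1.01 ± 0.07 in DI150 against PBS (SE, limma adjusted p = 1.18e-05). The difference between the treated lines was 0.43 ± 0.07 (SE, limma adjusted p = 0.00299), and its sign and call held without any 1 library. Pex7, the receptor for an N-terminal signal carried by a few enzymes, among them PHYH and AGPS, had 14.3 and 18.0 CPM in PBS, 12.5 and 14.3 CPM in I80, and 10.6 and 10.8 CPM in DI150. DI150 lay below both other lines, and I80 overlapped PBS. Pex7 fell in DI150 against PBS (-0.56 ± 0.14 SE, limma adjusted p = 0.00853), and against I80 the difference did not pass (-0.31, 95% interval -0.63 to 0.02). In I80 against PBS it did not pass either (-0.25, limma adjusted p = 0.149), but passed without PBS replicate 1 (-0.41, limma adjusted p = 0.0366).

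The docking proteins also parted. Pex14 (gene 56273, chromosome 4, 148960535 to 149099843) had 40.8 and 41.1 CPM in PBS, 20.4 and 22.4 CPM in I80, and 24.9 and 25.1 CPM in DI150. Both treated lines lay far below PBS and did not overlap each other. The log2 fold change was -0.92 ± 0.09 in I80 (SE, limma adjusted p = 6.43e-05) and -0.70 ± 0.09 in DI150 (SE, limma adjusted p = 0.000263), and between the treated lines 0.22 (95% interval 0.01 to 0.43, limma adjusted p = 0.0815). An annotated antisense gene, Gm17029, covers 28.3% of the exonic bases of Pex14, and no value for it was used here. Pex13, its partner in docking, had 48.1 and 45.3 CPM in I80, against 35.6 and 33.4 CPM in PBS, groups that did not overlap, and rose 1.35-fold (limma adjusted p = 0.00329). In DI150 it had 34.1 and 37.3 CPM, overlapping PBS, and was 1.31-fold lower than in I80 (limma adjusted p = 0.0107). That difference was lost without I80 replicate 1, I80 replicate 2 or DI150 replicate 1 (limma adjusted p = 0.0993, 0.0552 and 0.0766).

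Genes of receptor ubiquitination and export differed mainly in DI150. Pex2, a RING ligase (gene 19302, chromosome 3, 5560188 to 5578596), had 48.3 and 50.9 CPM in PBS, 44.6 and 46.7 CPM in I80, and 70.2 and 72.0 CPM in DI150. The DI150 libraries stood above the rest, and those of I80 just below PBS. The rise was 0.52 ± 0.07 against PBS (log2, SE, limma adjusted p = 0.000488) and 0.63 ± 0.07 against I80 (limma adjusted p = 0.000584). Pex6, the ATPase subunit that extracts PEX5 (gene 224824, chromosome 17, 46711476 to 46725543), had 38.6 and 48.6 CPM in PBS, 37.0 and 38.5 CPM in I80, and 73.8 and 62.6 CPM in DI150. DI150 again stood above both other lines, by 0.64 ± 0.13 against PBS (log2, SE, limma adjusted p = 0.00257) and 0.84 ± 0.13 against I80 (limma adjusted p = 0.00179). In I80, Pex6 lay below PBS without passing (-0.20, limma adjusted p = 0.204), and passed without PBS replicate 1 (-0.36, limma adjusted p = 0.0462). Pex10, the partner ligase, stood at 6.32 to 9.02 CPM over the 6 libraries and Pex26, the anchor of the ATPases, at 22.2 to 26.9 CPM. Neither passed in any comparison. The 95% intervals of their log2 fold changes in DI150 against PBS were -0.40 to 0.31 for Pex10 and -0.24 to 0.28 for Pex26.

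Pex11a, which takes part in peroxisome elongation and division, was low, with 4.64 and 4.99 CPM in I80 against 3.72 and 3.72 CPM in PBS. The groups did not overlap, but the difference did not pass (0.33, limma adjusted p = 0.0639). In DI150 it had 3.71 and 3.85 CPM. The difference between DI150 and I80 (-0.31, limma adjusted p = 0.104) passed without PBS replicate 1 or PBS replicate 2 (limma adjusted p = 0.0430 and 0.0435).

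Among the β-oxidation enzymes, Scp2 showed opposite differences in the treated lines. Its long product is a thiolase for branched-chain acyl-CoAs and its short product is sterol carrier protein (gene 20280, chromosome 4, 108043830 to 108144971). Scp2 had 35.6 and 38.8 CPM in PBS, 68.4 and 65.7 CPM in I80, and 30.6 and 31.7 CPM in DI150. I80 stood above both other lines and DI150 below both, with no overlap. It rose in I80 by 0.84 ± 0.08 (log2, SE, limma adjusted p = 6.41e-05) and fell in DI150 by 0.25 ± 0.08 (SE, limma adjusted p = 0.0261). The fall was lost without PBS replicate 2, without either I80 library and without either DI150 library (limma adjusted p from 0.0614 to 0.113), with DESeq2 (adjusted p = 0.0502) and with the DI150 and PBS libraries alone (limma adjusted p = 0.0698). The difference between DI150 and I80 was -1.09 ± 0.08 (SE, limma adjusted p = 9.18e-05). The count does not separate the products. The 300 bases around its listed start are shown because Scp2 was the 1 member that passed in opposite directions against PBS. That start lies within the gene's span, and the minus-strand window (GRCm38.p6, chr4:108118498-108118797, RefSeq) is printed in the direction of the gene, with an AGGTCA at position -109 and a TGACGCTGC at -6 in capitals.

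Scp2: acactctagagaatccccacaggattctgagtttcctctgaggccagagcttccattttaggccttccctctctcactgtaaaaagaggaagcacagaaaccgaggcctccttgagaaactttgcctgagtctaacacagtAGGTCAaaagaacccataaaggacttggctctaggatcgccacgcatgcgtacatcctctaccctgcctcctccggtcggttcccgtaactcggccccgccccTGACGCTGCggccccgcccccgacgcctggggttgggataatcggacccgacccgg

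Ehhadh, the L-bifunctional hydratase and dehydrogenase (gene 74147, chromosome 16, 21761285 to 21787834), had 2.18 and 3.52 CPM in PBS, 0.0780 and 0 CPM in I80, and 0 and 0.0382 CPM in DI150. PBS stood above every treated library. In reads, that was 145 in PBS, 2 in I80 and 1 in DI150 over both libraries of each. Scaled to depth, Ehhadh was 133-fold lower in DI150 than in PBS (exact 95% interval 23.6 to 5304) and 70.5-fold lower in I80 than in PBS (19.2 to 587), intervals of counting error only. Without the minimum level it passed limma's test in both (adjusted p = 0.000116 in DI150 and 0.000135 in I80). Its promoter is shown as that of 1 of 2 members nearly lost from DI150 (GRCm38.p6, chr16:21787785-21788084, minus strand, RefSeq), with a TGACCCAGC at -165 in capitals.

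Ehhadh: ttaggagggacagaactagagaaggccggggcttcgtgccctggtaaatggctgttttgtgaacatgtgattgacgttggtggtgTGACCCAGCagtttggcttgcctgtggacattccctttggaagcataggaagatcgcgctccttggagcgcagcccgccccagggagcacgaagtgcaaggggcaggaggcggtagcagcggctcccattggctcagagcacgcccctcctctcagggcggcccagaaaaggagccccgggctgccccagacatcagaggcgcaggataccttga

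Hsd17b4, the D-bifunctional enzyme of the same step, had the highest CPM of the β-oxidation members, with 115 and 118 CPM in PBS, 128 and 122 CPM in I80, and 105 and 105 CPM in DI150. It passed neither against PBS in I80 (0.10, limma adjusted p = 0.200) nor in DI150 (-0.14, limma adjusted p = 0.0763), although it passed in DI150 without PBS replicate 1 (limma adjusted p = 0.0465). It was 1.19-fold lower in DI150 than in I80 (limma adjusted p = 0.0180), a call lost without either library of I80 or of DI150 (limma adjusted p from 0.0776 to 0.157). Acaa1a, the thiolase of straight-chain β-oxidation, had 26.9 and 25.5 CPM in DI150, below 31.7 and 37.3 CPM in PBS, and fell 1.32-fold (limma adjusted p = 0.0108), a call lost without DI150 replicate 3 (limma adjusted p = 0.0658). It had 29.7 and 30.5 CPM in I80, where it passed only without PBS replicate 1 (limma adjusted p = 0.0253). Its count is uncertain, because it has a near-identical copy, Acaa1b, at 0.572 to 1.83 CPM, and shares 290 exonic bases with Myd88 on the opposite strand. Acox3, an oxidase of branched-chain acyl-CoAs, ranged from 11.8 to 23.1 CPM with overlap between all lines and did not pass in any comparison.

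Of the enzymes that feed unusual fatty acids into β-oxidation, Decr2 (gene 26378, chromosome 17, 26081208 to 26090322) had 12.6 and 17.5 CPM in PBS, 25.8 and 23.4 CPM in I80, and 27.0 and 26.8 CPM in DI150. Both treated lines stood above PBS. The rise was 0.71 ± 0.15 in I80 (log2, SE, limma adjusted p = 0.00420) and 0.84 ± 0.15 in DI150 (SE, limma adjusted p = 0.00172), and the treated lines differed by 0.13 (95% interval -0.23 to 0.48). Crat, which makes acetyl-carnitine in peroxisomes and mitochondria (gene 12908, chromosome 2, 30400476 to 30416017), had 57.6 and 56.3 CPM in PBS, 51.5 and 56.3 CPM in I80, and 78.4 and 80.8 CPM in DI150. DI150 stood above both other lines, by 0.48 ± 0.08 against PBS (log2, SE, limma adjusted p = 0.000804) and 0.56 ± 0.08 against I80 (limma adjusted p = 0.00112). Pecr, an enoyl-CoA reductase, and Ech1, a dienoyl-CoA isomerase of peroxisomes and mitochondria, stood at 9.13 to 11.8 CPM and 38.7 to 50.9 CPM and did not pass in any comparison. Ech1 passed downward in I80 without PBS replicate 1 (-0.36, limma adjusted p = 0.0162). On the opposite strand, Crat shares 411 exonic bases with Gm16323, and Pecr 175 with D230017M19Rik.

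Phyh gave the largest fold of the tested members. Its product hydroxylates phytanoyl-CoA, a branched acyl-CoA that cannot enter β-oxidation directly (gene 16922, chromosome 2, 4918996 to 4938743). Phyh had 5.37 and 4.93 CPM in PBS, 0.468 and 0.783 CPM in I80, and 0 and 0.0382 CPM in DI150. The lines did not overlap, and the level was lower at each dose. In reads, there were 265 in PBS, 31 in I80 and 1 in DI150. Phyh met the minimum mean of 1 CPM only through PBS, since I80 averaged 0.626 CPM and DI150 0.0191 CPM. Scaled to depth, Phyh was 244-fold lower in DI150 than in PBS (exact 95% interval 43.4 to 9664) and 29.3-fold lower in DI150 than in I80 (4.89 to 1196), intervals of counting error only. On the log2(CPM + 0.5) scale, which understates changes at this level, it fell by 2.34 ± 0.21 in I80 (SE, limma adjusted p = 3.77e-05) and by 3.45 ± 0.21 in DI150 (SE, limma adjusted p = 4.56e-06). The treated lines differed by -1.10 ± 0.21 (SE, limma adjusted p = 0.00448), lost without I80 replicate 2 (limma adjusted p = 0.0503). With a pseudocount of 0.1 those values were -2.89 in I80 against PBS, -5.48 in DI150 against PBS and -2.59 in DI150 against I80. Its promoter is shown for the same reason as that of Ehhadh (GRCm38.p6, chr2:4918746-4919045, plus strand, RefSeq). The capitals mark a TGACCT, the reverse complement of AGGTCA, at position 37 after the start.

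Phyh: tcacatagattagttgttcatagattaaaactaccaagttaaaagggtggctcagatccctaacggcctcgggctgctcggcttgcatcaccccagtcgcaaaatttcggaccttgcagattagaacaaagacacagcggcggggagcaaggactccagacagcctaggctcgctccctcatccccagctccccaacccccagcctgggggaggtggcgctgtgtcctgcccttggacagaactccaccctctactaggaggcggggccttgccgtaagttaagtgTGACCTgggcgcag

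Promoter windows of 300 bases, 250 before and 50 after a start, were listed by RefSeq for 23 of the 30 genes, in 27 windows. Searched on both strands, the PPAR response element, written as 2 copies of AGGTCA with 1 base between them, was in 0 of the 27, beside 0.0396% of 32851 mouse promoters. With so rare an exact match, that 0 cannot show whether the members lack such elements. Variant copies and copies outside the windows were not searched. A lone AGGTCA, which any full element also contains, was in 2 (7.41%), those of Phyh and Scp2, beside 16.3% of all. The antioxidant response element core TGACNNNGC was in 4 (14.8%), those of Ehhadh, Scp2, Pex7 and Hao1, beside 12.4% of all. The windows of the members had a median GC content of 58%, beside 52.7% for all promoters. These are matches of letters in the reference sequence and were not tested against the expression values.

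Amacr, the racemase that readies branched-chain acyl-CoAs for β-oxidation, had 8.34 and 8.37 CPM in PBS, 6.16 and 5.73 CPM in I80, and 7.95 and 8.51 CPM in DI150. I80 alone stood apart. Amacr fell 1.41-fold in I80 against PBS (limma adjusted p = 0.0119), and did not pass when I80 replicate 2 was left out (limma adjusted p = 0.0894). It was 1.38-fold higher in DI150 than in I80 (limma adjusted p = 0.0241), a call lost without either library of those lines (limma adjusted p from 0.0754 to 0.157), with DESeq2 (adjusted p = 0.0644) and without the minimum level (limma adjusted p = 0.0557). Hao1, a hydroxyacid oxidase known from liver that produces H2O2, was close to the limit of counting, with 11 reads in PBS, 18 in I80 and 23 in DI150. That was 0.225 and 0.202 CPM in PBS, 0.273 and 0.453 CPM in I80, and 0.476 and 0.496 CPM in DI150, with no overlap. Without the minimum level it passed limma's test in DI150 against PBS (adjusted p = 0.0209) and not in I80 against PBS (adjusted p = 0.129).

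The enzymes of ether lipid synthesis, the pathway to plasmalogens, were among the most abundant members. Gnpat, the acyltransferase of the opening step (gene 14712, chromosome 8, 124863033 to 124890057), had 179.9 and 172 CPM in PBS, 126 and 126 CPM in I80, and 161 and 161 CPM in DI150. I80 stood below DI150 and DI150 below PBS, with no overlap. Gnpat fell in I80 against PBS by 0.48 ± 0.06 (log2, SE, limma adjusted p = 0.000276) and was higher in DI150 than in I80 by 0.35 ± 0.06 (SE, limma adjusted p = 0.00329). In DI150 against PBS it did not pass (-0.13, limma adjusted p = 0.0960), although it did without PBS replicate 2 (limma adjusted p = 0.0284). Of the exonic bases of Gnpat, 280 (7.81%) are shared with Gm16163 on the same strand, for which no value was used here. Another 88 are shared with 2810004N23Rik on the opposite strand. That gene had 91.1 and 79.9 CPM in PBS, 51.8 and 53.1 CPM in I80, and 67.3 and 67.3 CPM in DI150. Agps, which makes the ether bond, stood at 214 to 252 CPM and did not pass in any comparison. Its 95% intervals were -0.08 to 0.25 in I80 against PBS and -0.03 to 0.30 in DI150 against PBS.

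Of the transporters, Abcd3, a membrane transporter of branched acyl-CoAs and bile acid intermediates (gene 19299, chromosome 3, 121758904 to 121815302), had 94.3 and 107 CPM in PBS, 108 and 103 CPM in I80, and 172 and 180.4 CPM in DI150. DI150 stood above the other lines, which overlapped each other. The rise in DI150 was 0.81 ± 0.08 against PBS (log2, SE, limma adjusted p = 6.54e-05) and 0.73 ± 0.08 against I80 (limma adjusted p = 0.000422). Abcd4 belongs to the same family, but its product is known for exporting cobalamin from lysosomes. It stood at 19.5 to 24.9 CPM and did not pass in any comparison, while in DI150 against PBS (0.26, limma adjusted p = 0.0538) it passed when CPM were scaled by TMM (limma adjusted p = 0.0353) or median of ratios (limma adjusted p = 0.0471).

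The membrane proteins Pxmp2, a channel for small solutes, and Pxmp4 were low. Pxmp2 had 2.67 and 2.06 CPM in PBS, 3.12 and 3.26 CPM in I80, and 2.09 and 2.06 CPM in DI150. I80 stood above the other lines, which overlapped. It was 1.54-fold lower in DI150 than in I80 (limma adjusted p = 0.0402), a call lost without either library of those lines (limma adjusted p from 0.139 to 0.190), with edgeR (adjusted p = 0.0665) and with DESeq2 (adjusted p = 0.182). In I80 against PBS it did not pass (0.37, limma adjusted p = 0.0845) but passed without PBS replicate 1 (0.53, limma adjusted p = 0.00981). Pxmp4 had 4.47 and 7.89 CPM in PBS, 8.86 and 11.0 CPM in I80, and 9.56 and 10.3 CPM in DI150, with PBS below both treated lines and widely spread. Its rise was 1.61-fold in I80 (limma adjusted p = 0.0356) and 1.60-fold in DI150 (limma adjusted p = 0.0340). In I80 the call was lost without any 1 library other than PBS replicate 2 (limma adjusted p from 0.0589 to 0.188). In DI150 it was lost without PBS replicate 1, DI150 replicate 1 or DI150 replicate 3 (limma adjusted p = 0.153, 0.0998 and 0.140). Without the minimum level neither call held (limma adjusted p = 0.0738 in I80 and 0.0705 in DI150).

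**Figure D3:**
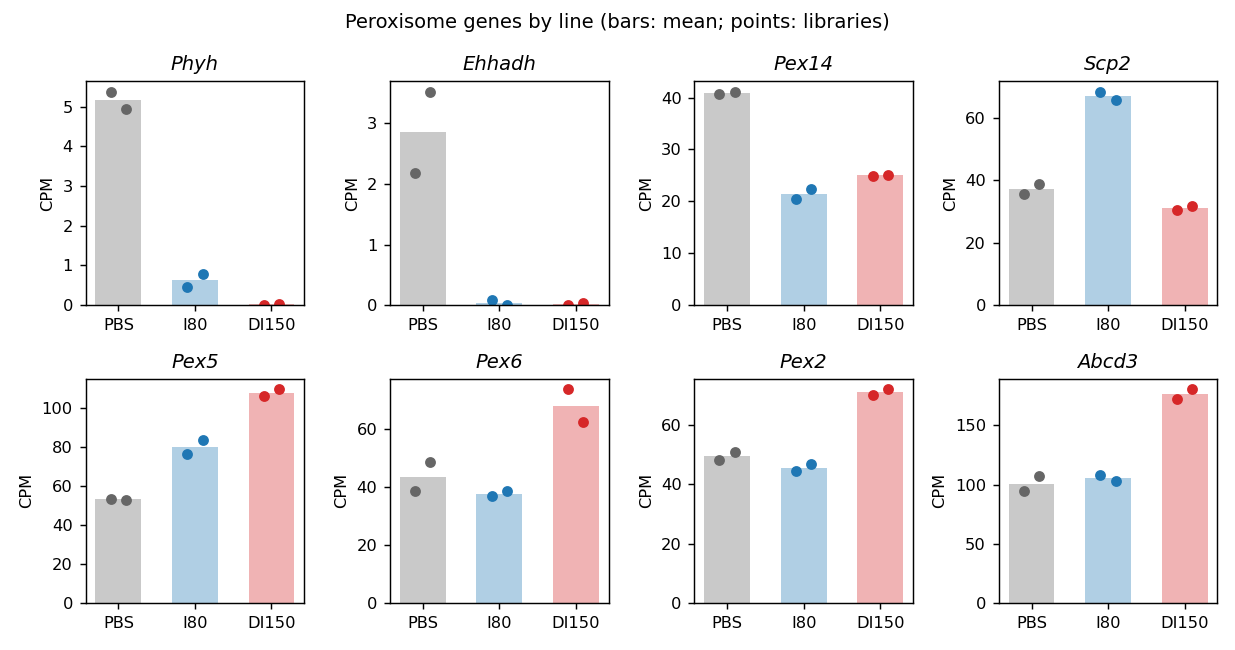
CPM of 8 of the genes in each library (points), with the mean of each line as a bar, for PBS, I80 and DI150. Phyh, Ehhadh and Pex14 are highest in PBS, Scp2 is highest in I80, and Pex5, Pex6, Pex2 and Abcd3 are highest in DI150.

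Fold changes of the members were set beside those of other tested genes within 1 Mb on the same chromosome. For Scp2 the median log2 fold change of its 24 neighbours was 0.51 in I80 against PBS, -0.28 in DI150 against PBS and -0.77 in DI150 against I80, the same signs as its own. Pex14 had 26 neighbours with medians of -0.71 in I80 and -0.35 in DI150 against PBS. Medians in DI150 against I80 were 0.68 over the 39 neighbours of Pex6, 0.55 over the 12 of Abcd3 and -0.47 over the 11 of Pex3, again with the signs of those members. Crat and Pex19, both higher in DI150 than in I80 (log2 fold changes 0.56 and 0.29), had neighbours with medians of -0.14 and -0.10. Abcd3 was at 0.07 in I80 against PBS while its neighbours were at -0.43. Among called members with a neighbour, the median of the neighbours had the sign of the member for 10 of 11 in I80 against PBS and 11 of 12 in DI150 against PBS, where Phyh was the exception, and for 11 of 13 in DI150 against I80. The like share over all called genes was not counted, so these counts cannot be read as a trait of the members. Phyh had 8 neighbours, whose medians were 0.32 in I80 and 0.26 in DI150 against PBS. Gnpat lies on chromosome 8, where the median over 620 tested genes was -0.64 in I80 and -0.56 in DI150 against PBS. Pex2 had no tested gene within 1 Mb.

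Over the 27 tested members with a neighbour, the fold change of a gene and the median of its neighbours correlated across genes at r = 0.27 in I80 against PBS (Spearman's rho 0.49), 0.23 in DI150 against PBS (rho 0.58) and 0.73 in DI150 against I80 (rho 0.68). Without Phyh, the tested member with the largest fold, r over 26 genes was 0.61, 0.64 and 0.75. Over 11330 tested genes of the table, with none left out, r was 0.27, 0.27 and 0.39 and rho 0.46, 0.43 and 0.53. The values without Phyh are therefore not a like comparison with all tested genes. With Phyh kept, r against PBS was near that over all tested genes. The genes share the same libraries and are not independent, and the part of a chromosomal region in any member's difference was not tested.

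**Figure D4:**
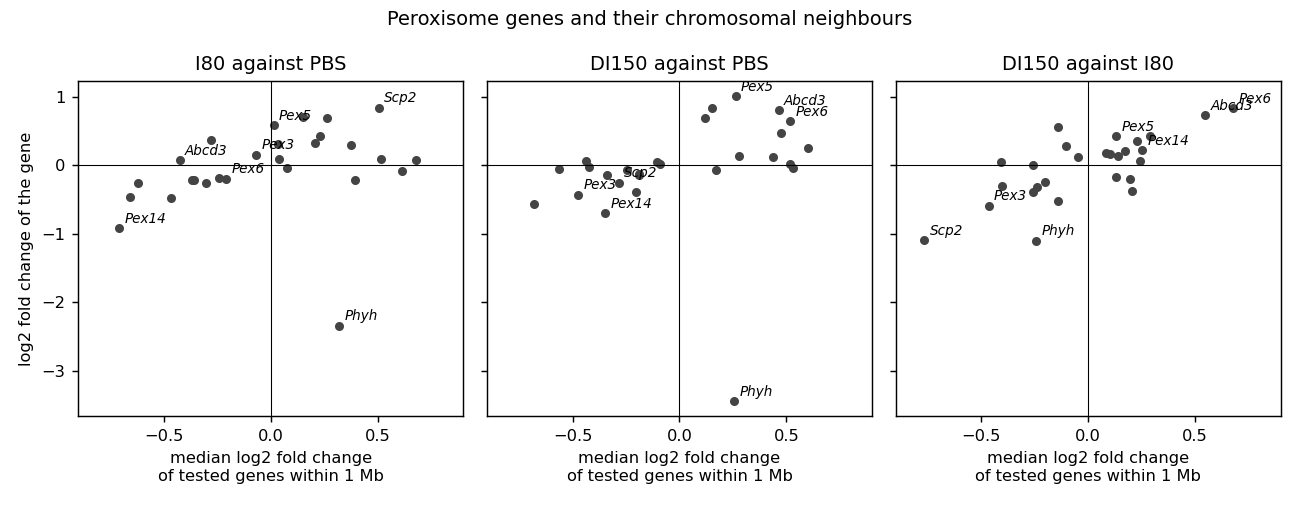
Log2 fold change of each tested member (vertical) against the median log2 fold change of the tested genes within 1 Mb of it (horizontal), in the 3 comparisons. In DI150 against I80, Scp2 and Pex3 lie at the lower left and Pex6 and Abcd3 at the upper right, while Phyh lies apart from the other points against PBS.

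Other genes of the pathway were counted from lists written from textbook knowledge, but with earlier results of these data known. Catalase (Cat), the peroxisomal enzyme that breaks down H2O2, had 89.1 and 104 CPM in PBS, 456 and 424 CPM in I80, and 1136 and 1059.5 CPM in DI150. Each line stood above the one with less H2O2, with no overlap. Cat was 4.55-fold higher in I80 than in PBS (limma adjusted p = 7.48e-07), 11.3-fold higher in DI150 than in PBS (limma adjusted p = 7.54e-08) and 2.50-fold higher in DI150 than in I80 (limma adjusted p = 6.25e-05). None of the 28 tested members of the group of 30 rose by as much in these comparisons.

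Of 14 tested biogenesis and division genes outside the group, 7 rose and 2 fell in I80, and 10 rose and 2 fell in DI150, against PBS. That is 64.3% and 85.7% called either way, beside 66.4% and 68.7% of all tested genes. Their median log2 fold changes were 0.26 and 0.31, beside -0.00 and -0.03 over all tested genes. Acbd5, a tether of peroxisomes to the endoplasmic reticulum, rose 1.97-fold in I80 (limma adjusted p = 0.000355) and 1.92-fold in DI150 (limma adjusted p = 0.000449). Trim37, a ubiquitin ligase reported to stabilise PEX5, fell 1.43-fold in I80 (limma adjusted p = 0.000815) and 1.72-fold in DI150 (limma adjusted p = 8.00e-05). Mff, a receptor of the fission machinery, fell 1.21-fold in I80 (limma adjusted p = 0.0219). In DI150 it was called higher, at 115 CPM beside 84.4 CPM in PBS. In DI150 against I80, 6 were higher and 2 lower (57.1%, beside 43.8% of all tested genes). Over all the lists outside the group, 36 genes passed in that comparison, which 43.8% of all tested genes did. Those lists had 14, 26, 10, 7, 9 and 19 tested genes, with Cpt1a in both of the last. Fewer passed without any 1 of the libraries compared, where calls over all tested genes shrank too. Mff and Fis1, also of fission, were 1.64-fold and 1.53-fold higher (limma adjusted p = 0.000584 and 0.000483), and Dnm1l, the fission GTPase, and Trim37 were 1.24-fold and 1.21-fold lower (limma adjusted p = 0.0337 and 0.0284).

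Of 26 tested peroxisomal enzymes and membrane proteins outside the group, 7 rose and 6 fell in I80, and 11 rose and 5 fell in DI150, against PBS, with median log2 fold changes of 0.16 and 0.05. These shares of 50% and 61.5% were below the 66.4% and 68.7% called among all tested genes. Acox2, the oxidase of branched acyl-CoAs and bile acid intermediates, had 42.0 and 62.0 CPM in PBS, 211 and 216 CPM in I80, and 237 and 216 CPM in DI150. Both treated lines stood far above PBS, by 4.10-fold in I80 and 4.35-fold in DI150 (limma adjusted p = 2.02e-05 and 1.47e-05). Xdh, xanthine dehydrogenase, rose 2.84-fold in I80 and 2.96-fold in DI150 (limma adjusted p = 0.00296 and 0.00238). Idh1, an NADPH-producing dehydrogenase of cytosol and peroxisomes, fell 2.15-fold in I80 and 2.31-fold in DI150 (limma adjusted p = 2.40e-05 and 1.39e-05). Mlycd, malonyl-CoA decarboxylase, fell 1.65-fold in I80 (limma adjusted p = 0.0472), and Mvk, mevalonate kinase, 1.65-fold in DI150 (limma adjusted p = 0.000222). Mvk was also called lower in I80, at 26.9 CPM beside 37.5 CPM in PBS. In DI150 against I80, 4 were higher and 4 lower (30.8%, beside 43.8% of all tested genes). Mpv17l, a membrane protein, and Prdx5, a peroxiredoxin of several organelles, were 2.42-fold and 1.42-fold higher (limma adjusted p = 0.00106 and 0.0172), and Acot8, a thioesterase, and Dhrs7b, which reduces an ether lipid precursor, were 1.38-fold and 1.31-fold lower (limma adjusted p = 0.0179 and 0.00361).

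**Figure D5:**
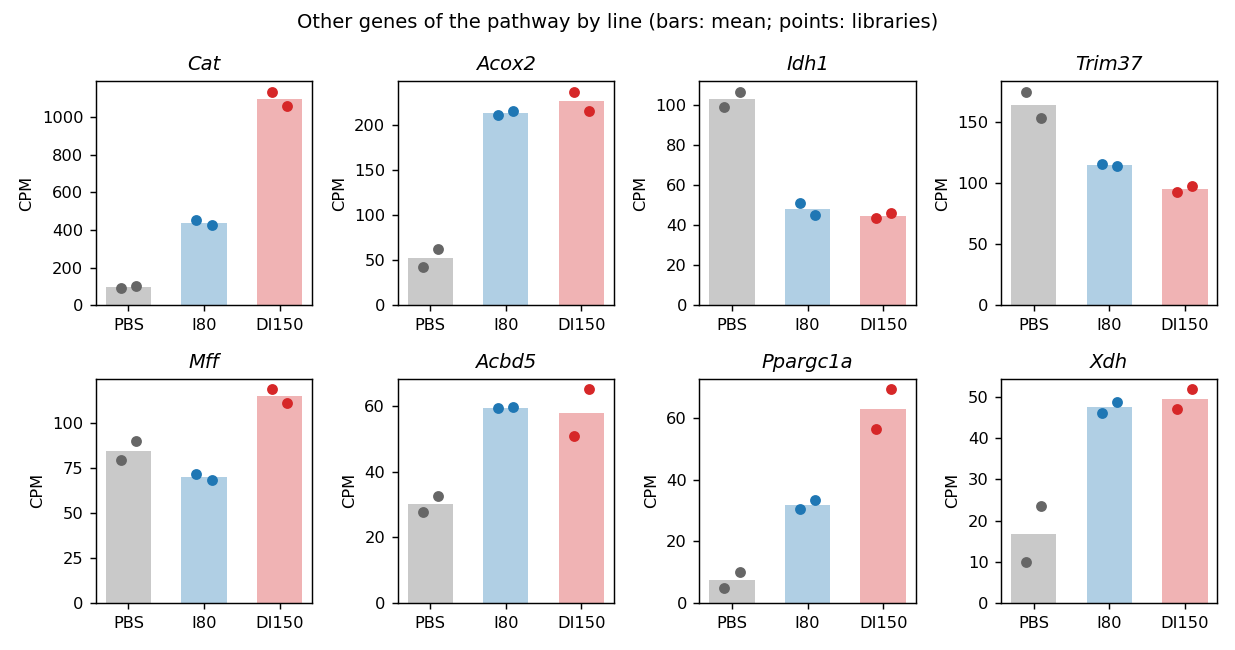
CPM of 8 pathway genes outside the group of 30 in each library (points), with the mean of each line as a bar, for PBS, I80 and DI150. Cat and Ppargc1a are higher at each dose, Acox2, Acbd5 and Xdh are similarly high in both treated lines, Idh1 and Trim37 are highest in PBS, and Mff is highest in DI150.

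Of 10 tested genes linked to the removal of peroxisomes by autophagy, 6 rose and 1 fell in each treated line against PBS (median log2 fold change 0.37 in I80 and 0.28 in DI150), and 2, Atm and Stub1, were lower in DI150 than in I80. The 70% called in each treated line against PBS was near the 66.4% and 68.7% of all tested genes, and the 20% between the treated lines stood beside 43.8%. Sqstm1, the p62 cargo adaptor, rose 2.73-fold in I80 and 2.10-fold in DI150 (limma adjusted p = 0.000114 and 0.000548). Epas1, a hypoxia-inducible factor, averaged 97.7 ± 27.3 CPM in PBS, 8.17 ± 1.68 CPM in I80 and 12.1 ± 0.493 CPM in DI150 (SD, n = 2 each), and fell in I80 and in DI150 (limma adjusted p = 4.25e-06 and 9.64e-06). Hif1a, of the same family, rose 1.81-fold in I80 and 1.92-fold in DI150 (limma adjusted p = 0.000120 and 6.99e-05), and Tsc1, a restraint on mTOR, rose 1.42-fold in I80 and 1.44-fold in DI150 (limma adjusted p = 0.000465 and 0.000350).

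PPARs are lipid-sensing nuclear receptors whose activation raises many peroxisomal genes in rodent liver. Ppara had 0 to 0.162 CPM and Pparg 0 reads in every library, whereas Ppard stood at 116 to 249 CPM. Of 7 tested PPAR partners and coactivators, 4 rose and 0 fell in each treated line against PBS, with median log2 fold changes of 0.47 in I80 and 0.51 in DI150. That is 57.1% in each, beside 32.3% and 32.7% of all tested genes that rose and 66.4% and 68.7% called either way. At an unadjusted p under 0.05 by limma the count that fell was 0 as well. Ppargc1a, a coactivator of mitochondrial and lipid genes, had 5.00 and 9.99 CPM in PBS, 30.4 and 33.3 CPM in I80, and 56.6 and 69.3 CPM in DI150. The lines did not overlap, and it rose 4.25-fold in I80 and 8.40-fold in DI150 (limma adjusted p = 0.000287 and 3.52e-05). Ncoa1 rose 1.77-fold in I80 and 2.87-fold in DI150 (limma adjusted p = 0.000231 and 8.32e-06), and Ppard 1.50-fold in I80 and 1.72-fold in DI150 (limma adjusted p = 0.00420 and 0.000977). In DI150 against I80, Ppargc1a and Ncoa1 were 1.98-fold and 1.62-fold higher (limma adjusted p = 0.0226 and 0.00161), and Rxra, the partner receptor, 1.30-fold lower (limma adjusted p = 0.00452).

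Of 9 tested PPAR targets outside peroxisomes, 2 rose and 5 fell in I80, and 5 rose and 4 fell in DI150, against PBS, with median log2 fold changes of -0.46 and 0.93. Those called made up 77.8% and 100%, beside 66.4% and 68.7% of all tested genes. Fabp5, a fatty acid carrier, averaged 109 ± 15.5 CPM in PBS, 3.02 ± 0.478 CPM in I80 and 17.3 ± 1.28 CPM in DI150 (SD, n = 2 each), and fell in I80 and in DI150 (limma adjusted p = 1.59e-07 and 3.05e-06). Plin2, which coats lipid droplets, fell 4.12-fold in DI150 (limma adjusted p = 1.50e-06). It was also called lower in I80, at 182 CPM beside 251 CPM in PBS. Fads2, a fatty acid desaturase, fell 1.58-fold in I80 and rose 1.97-fold in DI150 (limma adjusted p = 0.000270 and 3.04e-05). Acot1 and Acot2, thioesterases of cytosol and mitochondria, rose in I80, Acot1 2.02-fold and Acot2 1.56-fold (limma adjusted p = 5.70e-05 and 0.00792). Both were also called higher in DI150, at 97.3 CPM for Acot1 and 8.43 CPM for Acot2, beside 38.7 and 4.17 CPM in PBS. Their counts are uncertain because the genes are near-identical copies. Acsl1, an acyl-CoA synthetase, rose 2.31-fold in DI150 (limma adjusted p = 0.000124).

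Of 19 tested genes of mitochondrial β-oxidation, 6 rose and 9 fell in I80, and 7 rose and 9 fell in DI150, against PBS, with median log2 fold changes of -0.06 and -0.23. The share called was 78.9% in I80 and 84.2% in DI150, beside 66.4% and 68.7% of all tested genes. Cpt1a, the carnitine palmitoyltransferase that admits fatty acids to mitochondria, fell 2.03-fold in I80 and 1.96-fold in DI150 (limma adjusted p = 0.000868 and 0.00119). Acadm, a medium-chain acyl-CoA dehydrogenase, fell 1.93-fold in I80 and 1.86-fold in DI150 (limma adjusted p = 5.17e-05 and 6.84e-05). Etfb, of the electron transfer flavoprotein, rose 1.85-fold in I80 and 1.50-fold in DI150 (limma adjusted p = 9.25e-05 and 0.000814). Hadhb, of the trifunctional protein, rose 1.80-fold in DI150 (limma adjusted p = 0.000342). It was also called higher in I80, at 12.6 CPM beside 9.16 CPM in PBS. In DI150 against I80, 5 were higher and 3 lower (42.1%, beside 43.8% of all tested genes), with Cpt2 1.50-fold lower (limma adjusted p = 0.00314) and Hadha 1.33-fold higher (limma adjusted p = 0.00171).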

How the data were processed

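Total RNA of 6 samples was depleted of ribosomal RNA, made into stranded libraries and read as 81-base single reads, per the labels' protocols. STAR and the mm10 build are named without versions in the submitters' processing notes, while no source used here names the gene counter, the annotation or the use of strand. The authors deposited CPM (reads per 1000000 assigned to genes), with no other scaling that the values show. Groups follow the treatment in column names and labels. The column numbered 3 matches no label number and is called DI150 replicate 3.

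All 146724 CPM values were whole multiples of 1 read (100% within 1e-06 reads), which gave reads and depth. limma 3.58.1 (R 4.3.3; lmFit, eBayes with a trend, two-sided) was fitted to log2(CPM + 0.5) of 11428 genes averaging 1 CPM or more, with the 3 groups in 1 model (3 residual degrees of freedom, prior 4.52), with Benjamini-Hochberg adjustment over all tested genes and a threshold of 0.05. Folds are ratios of mean CPM. The scripts were tested on simulated data. Alternatives were edgeR 4.0.16 and DESeq2 1.42.0 on the recovered reads, TMM and median-of-ratios scaling (which shifted the median by at most 0.0359 on the log2 scale), pseudocounts of 0.1 and 1, no minimum and a minimum of 5 CPM, the compared libraries alone, the replicate block and leaving out each library.

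Gene numbers were matched to symbols, positions and promoters of RefSeq GRCm38.p6, the same build as mm10 (24374 of 24454 matched). Exon lengths and overlaps are from a GENCODE annotation of GRCm38. A protein table was not used here, so targeting signals in the proteins were not analysed here. Members and lists were chosen with earlier results of these data known. All 30 members are reported, with values per library for those past 2-fold against PBS or different between the treated lines. Of each other list, up to 3 called genes with the largest log2 fold change each way and a mean of at least 5 CPM could be named, plus Cat; genes named beyond them serve as context. Some genes that this rule would name are not reported here. Of 162 listed genes, Peds1 and Ptgr3 had no match.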

Additional observations from a re-analysis of the deposited data

Results flagged for a closer look

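For 14 of the 28 tested genes the effect in DI150 differed from that in I80 by limma's test of the difference. With shared PBS libraries that test equals DI150 against I80. The share was 50%, beside 43.8% of all tested genes. The differences toward DI150, on the log2 scale, were 0.84 for Pex6, 0.73 for Abcd3, 0.63 for Pex2, 0.56 for Crat, 0.44 for Amacr, 0.43 for Pex5, 0.35 for Gnpat and 0.29 for Pex19. The differences toward I80 were -1.10 for Phyh, -1.09 for Scp2, -0.59 for Pex3, -0.52 for Pxmp2, -0.38 for Pex13 and -0.25 for Hsd17b4. Scp2 is the 1 member that passed in opposite directions against PBS, and its fall in DI150 was lost under several alternatives, as given with that gene. Leaving out 1 library ended the difference for Phyh, Pex19, Pex13, Hsd17b4, Amacr and Pxmp2, as given with those genes.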

How the results depend on the processing

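Of 1279 values of members under alternatives, 1203 stayed on their side of the threshold, 63 lost a call and 13 gained one. Of the 1203, 1180 kept their direction and 23, of which 20 had a library left out, changed sign without being called. In I80 against PBS, 3 members fell with a minimum of 5 CPM (5 as reported, and 4 or 5 under the other alternatives that keep every library compared), since Phyh was no longer tested and Pex19 missed the threshold, and 3 to 9 fell when 1 library was left out. With 1 library left out, DI150 against I80 gave 2 to 7 members lower (6 as reported, and 4 to 7 under the alternatives that keep every library compared), 1295 to 3008 genes higher (2503), 1187 to 2965 lower (2505) and 18 to 47 called in the other lists (36). With the replicate block, possible for I80 against PBS, 5 members rose and 4 fell, 3471 of all tested genes rose and 3704 fell, and 55 of the other lists were called; Pex16 and Pex19 lost their calls (limma adjusted p = 0.0529 and 0.0682). The deviations of same-numbered PBS and I80 libraries correlated across genes at 0.023. With 2 libraries a group, that value cannot decide whether same-numbered samples were processed as pairs. No paired analysis was possible because DI150 shares only number 1 with the other groups, in the comparisons with DI150. The size of a change is limited by the read count for Phyh in DI150 (1 read) and for Ehhadh in DI150 and I80 (1 and 2 reads).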
